A study of Mus musculus with 8 samples.

Results

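Non-transformed blood stem cells that had shared a marrow with leukemia were compared with such cells from a marrow without it, across all 18193 genes that the array's annotation names by a single symbol. The comparison rests on 4 of the 8 Affymetrix mouse expression arrays of the series: 2 arrays of HSC from leukemic mice and 2 of HSC from normal mice. Leukemic mice were CD45.1+ hosts given equal numbers of CD45.1+ marrow cells and of CD45.2+ marrow cells transgenic for BCR-ABL and SCL-tTA, and the normal mice were made in the same way but lacked BCR-ABL. This oncogene, the fused tyrosine kinase of chronic myeloid leukemia, is driven here by a transactivator under regulatory elements of the stem cell gene SCL, which tetracycline silences. Cells were sorted 4 weeks after tetracycline was taken out of the drinking water. In both groups the arrayed cells were CD45.1+, so they do not carry the transgene. CD45.1+ cells can stem from the donor marrow or from the host, and the labels do not separate these sources. HSC here means the CD150+ CD48- part of the KSL gate (lineage negative, Kit+, Sca-1+). The other 4 arrays held the whole KSL gate of the same kinds of mice, a mixture of stem cells and multipotent progenitors, and serve below as a scale. The labels do not state mouse ages or that the replicates were separate animals, so the tests measure the spread between these arrays.

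Hematopoietic stem cells renew themselves and give rise to all blood lineages. Most of them rest outside the cell cycle in healthy marrow, and inflammatory cytokines such as interleukin-1 and interleukin-6 can push them into cycle and towards the myeloid lineage, which makes granulocytes and monocytes. The earliest steps along that path are marked by genes of primary granule proteases and of myeloid cytokine receptors, and maturing neutrophils later make alarmins and proteins of secondary granules.

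The genes of the sort gate were measured first, as a check of the label. Slamf1, which encodes CD150, was at 8.90 and 9.36 (log2 values as deposited) on the HSC arrays of normal mice and at 8.47 and 8.23 on those of leukemic mice, against a mean of 6.41 in KSL of normal mice. In what follows, values of HSC replicates 1 and 2 of normal mice are set against those of leukemic mice in this order, and "above" or "below" means that both leukemic arrays lay beyond both normal ones. Cd48 was at 6.19 and 8.12 against 7.96 and 6.39, below the KSL mean of 10.42, and its HSC groups overlapped. Kit, the stem cell factor receptor gene, was at 10.12 and 10.16 against 10.80 and 9.70. The limma difference between the HSC groups, leukemic minus normal, was -0.78 ± 0.51 for Slamf1, 0.02 ± 0.82 for Cd48, 0.11 ± 0.37 for Kit and -0.00 ± 0.21 for Ptprc, which encodes CD45 (adjusted p between 0.595 and 1). The T cell gene Cd3e was near the floor of the table, at 3.80 or less on all 4 HSC arrays. Neutrophil genes were not at the floor: S100a8, an alarmin gene of mature neutrophils, was at 11.79 and 7.93 in HSC of normal mice and at 13.11 and 12.34 in HSC of leukemic mice, although the gate leaves out lineage positive cells.

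HSC arrays were noisier than KSL arrays, with a median standard deviation between replicates of 0.20 and 0.21 log2 units against 0.11 and 0.09. Some other measures of the arrays also moved with the groups or set one array apart. The signal at the 3 prime end minus that at the 5 prime end, which rises with RNA degradation or shorter amplified product, was 0.78 and 0.83 for Gapdh in HSC of normal mice and 1.19 and 1.03 in HSC of leukemic mice. For Tfrc it was -2.04 and -1.74 against -0.36 and -0.75. Actb moved the other way, at -0.37 and -0.38 against -0.42 and -0.50. The groups overlapped for 18S RNA (0.64 and 0.47 against 0.52 and 0.54) and for pyruvate carboxylase (-0.38 and -0.82 against -0.85 and 0.12). HSC normal 1 had a male pattern of sex-linked genes, with Xist at 5.79 against 11.80 or more on the other HSC arrays. KSL normal 1 had it too, with Xist at 3.67, so the arrays numbered 1 of both normal groups share it. Both also had higher Camp, Klf1 and Hspa1b than the normal array numbered 2 of their gate. For the male pattern, fits with a term for it and without its arrays are given below. The part of the other measures in the results was not tested.

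Limma called 18 genes between the HSC groups at a Benjamini-Hochberg adjusted p under 0.05, which is 0.0989% of the 18193 tested. In leukemic mice 11 of them rose (0.0605%) and 7 fell (0.0385%). Among those that rose were the interleukin-1 receptor gene Il1r1, the AP-1 factor gene Fosl2 and the mitotic motor gene Kif11, and among those that fell the transcription factor genes Trps1 and Creb3, the phosphatase gene Ptpn14 and the growth factor gene Bmp4. In RNA from sorted populations, fewer cells with a transcript and less of it per cell cannot be told apart. At an unadjusted p under 0.05 there were 2505 genes (13.8%), 1189 higher and 1316 lower. The adjusted calls rest on the spread of the KSL arrays too: with the 4 HSC arrays alone 0 genes passed and 1459 had an unadjusted p under 0.05. Without the 2 arrays of male pattern 0 passed as well, and 2740 had an unadjusted p under 0.05. Leaving out 1 array gave 257 calls without HSC leukemic 1, 235 without HSC leukemic 2, 127 without HSC normal 1, 36 without HSC normal 2, 1 without either KSL array of normal mice and 0 without either KSL array of leukemic mice.

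Among the genes that rose, Il1r1 encodes the signalling receptor for interleukin-1. It was at 6.30 and 6.42 in HSC of normal mice and at 8.29 and 8.34 in HSC of leukemic mice, a rise of 1.95 ± 0.08 (SE of the fit, n = 2 arrays per group; 3.86-fold; adjusted p = 0.0219). The groups lay far apart, and the level in HSC of leukemic mice was near the KSL mean of 8.18 in normal mice. Fosl2, a member of the AP-1 transcription factor family, went from 6.65 and 6.64 to 8.07 and 8.15, a rise of 1.47 ± 0.06 (adjusted p = 0.0219). Its second probe set did not separate the groups, with 6.97 and 8.13 against 7.45 and 7.79. Kif11, the motor that pushes the spindle poles apart in mitosis, was at 8.67 and 8.75 against 9.73 and 9.81 and rose by 1.06 ± 0.07 (adjusted p = 0.0458), but of its other probe sets one had 8.45 and 8.21 against 8.55 and 11.07 and the other 8.46 and 8.12 against 8.04 and 8.68. Cirbp, a cold-inducible RNA-binding protein gene with 1 probe set, was at 10.47 and 10.46 against 11.15 and 11.22, a rise of 0.72 ± 0.04 (adjusted p = 0.0382).

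The other risers included genes of membrane lipids, the matrix and ubiquitin transfer. Atp8b4, which encodes a phospholipid flippase, was at 4.53 and 4.27 against 5.98 and 5.94 and rose by 1.56 ± 0.09 (adjusted p = 0.0382), and its second probe set lay at the floor of 3.32 in both normal arrays and at 5.17 and 5.03 in the leukemic ones. Its level stayed well below the KSL mean of 10.21 in normal mice. Lpgat1, a lysophospholipid acyltransferase gene, rose by 1.38 ± 0.09 from 6.43 and 6.60 to 7.82 and 7.98, while its other 4 probe sets had differences between -0.85 and 0.18. Rnf217, a ubiquitin ligase gene, rose by 1.74 ± 0.11 from 6.77 and 6.79 to 8.39 and 8.63. The collagenase gene Mmp13 was at the floor in both normal arrays and at 5.04 and 4.76 in the leukemic ones, at least 2.99-fold higher, and the scavenger receptor gene Scara3 was at the floor against 4.90 and 4.64, at least 2.73-fold higher. Cdc42ep2, an effector of the small GTPase Cdc42, rose by 0.71 ± 0.04 and the epidermal envelope gene Lor by 0.50 ± 0.03, both from levels below the array medians, which lay between 5.74 and 5.86.

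Of the 7 genes that fell, Trps1 encodes a GATA-type zinc finger repressor. Its values were 7.99 and 8.11 in HSC of normal mice and 6.59 and 6.49 in HSC of leukemic mice, a difference of -1.50 ± 0.06 (adjusted p = 0.0219). Creb3, a transcription factor held in the endoplasmic reticulum membrane, went from 10.74 and 10.89 to 9.44 and 9.33 (-1.43 ± 0.10, adjusted p = 0.0459) in the probe set that represents it, but its second probe set stood at 8.52 and 8.28 against 8.41 and 8.36. Ptpn14, a tyrosine phosphatase that restrains the growth regulator YAP, was at 6.67 and 6.72 against 4.88 and 4.89 (-1.81 ± 0.11), and a second probe set also separated the groups, with 5.65 and 5.57 against 4.81 and 4.41. Bmp4, a growth factor of the BMP family, was at 5.63 and 5.41 in normal mice and at the floor in both leukemic arrays, at least 4.58-fold lower (adjusted p = 0.0218). In KSL it was at 3.38 on 1 array and at the floor on the other 3. Uevld fell by 1.26 ± 0.07, from 8.43 and 8.38 to 7.22 and 7.09. Slc16a12, a transporter gene of the monocarboxylate family, was at 4.48 and 4.47 against the floor, at least 2.22-fold lower, and the basement membrane collagen gene Col4a5 at 3.76 and 3.75 against the floor, at least 1.35-fold lower. For both, the small error comes with values at the floor, which do not vary. The same limit holds for Bmp4, Mmp13 and Scara3, which also had 1 HSC group at the floor. Mmp13 and Scara3 were at the floor on every KSL array too. In all, 5 of the 18 called genes had HSC arrays at the floor.

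**Figure D1:**
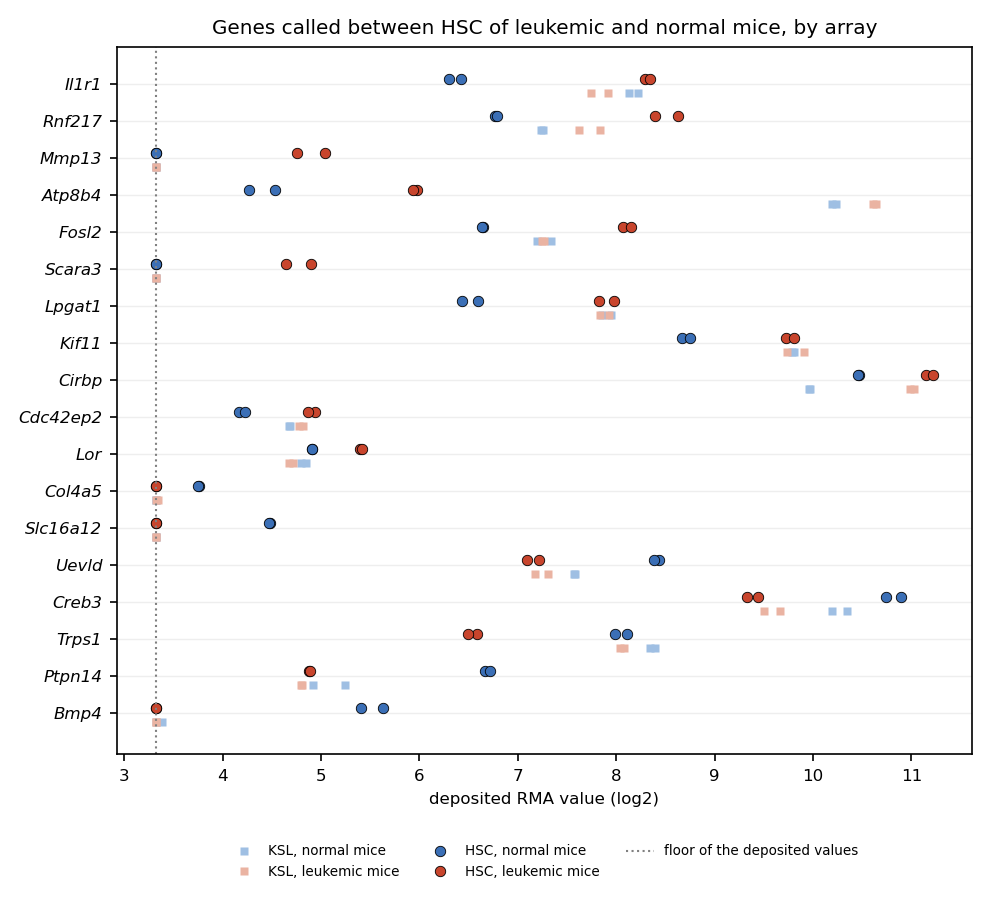
Each row is one of the 18 called genes and each point 1 array (x axis: deposited RMA value, log2; circles, HSC; squares, KSL; dotted line, the floor at 3.32). In every row the HSC arrays of leukemic mice lie apart from those of normal mice, which the call selects for, as for Il1r1 at 8.29 and 8.34 against 6.30 and 6.42.

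Among the 18 called genes, 6 have a single probe set and 10 have another one above the floor. In 6 of these 10, at least 1 other probe set separated the HSC groups in the same direction. Counted by probe set, 6 of 20 others did so. Of all genes, each by its brightest probe set, 16.0% lay above and 16.7% below. A gene with several other probe sets has more than 1 chance to be counted among the 6 of 10.

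Genes of granulocyte-monocyte progenitors stood higher in HSC of leukemic mice. Of 21 measured members of this list, 14 (66.7%) had both leukemic HSC arrays above both normal ones, against 16.0% of all genes, and 0 had both below. Limma passed 0 of 21 over all genes, while 10 (47.6%, against 6.54% of all genes) were higher at an unadjusted p under 0.05. The median log2 difference of the list was 1.13, against 0.00 over all genes, and it lay between 0.90 and 1.23 when 1 HSC array was left out.

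Ctsg encodes cathepsin G, a serine protease of primary granules. It was at 6.50 and 6.04 in HSC of normal mice and at 8.74 and 9.28 in HSC of leukemic mice (2.74 ± 0.25, adjusted p = 0.0819). Its HSC groups lay 2.23 log2 units apart at their nearest arrays, yet the KSL arrays of normal mice were far higher still, at 12.65 and 12.88. Mpo, the gene of myeloperoxidase, was at 7.75 and 9.60 against 10.63 and 11.89, and Elane, that of neutrophil elastase, at 5.45 and 7.75 against 9.31 and 9.00. Prtn3, another granule protease gene, stood at 10.34 and 10.22 against 10.52 and 10.74, apart by a small margin (0.35 ± 0.16, adjusted p = 0.424). The 250 bases before the annotated start of Ctsg and of Mpo are printed because these genes lead the granule group. Capitals mark GAGGAAG, a purine-rich core bound by the myeloid factor PU.1, searched on both strands and present in 10.6% of 32851 promoters of that length (RefSeq, GRCm38.p6). The Ctsg stretch is chr14:56102575-56102824, minus strand, and the Mpo stretch chr11:87793534-87793783, plus strand, each written in the direction of transcription.
Ctsg: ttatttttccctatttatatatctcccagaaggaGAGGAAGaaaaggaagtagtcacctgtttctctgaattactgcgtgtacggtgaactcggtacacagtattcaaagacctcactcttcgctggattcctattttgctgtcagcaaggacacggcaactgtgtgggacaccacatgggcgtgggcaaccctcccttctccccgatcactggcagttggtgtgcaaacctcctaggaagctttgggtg
Mpo: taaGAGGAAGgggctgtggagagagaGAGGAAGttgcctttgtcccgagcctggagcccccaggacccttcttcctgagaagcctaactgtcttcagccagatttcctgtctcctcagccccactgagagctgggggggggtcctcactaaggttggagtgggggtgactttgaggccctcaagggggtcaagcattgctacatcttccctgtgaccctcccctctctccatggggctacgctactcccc
A match is a stretch of letters only and was not tested as a binding site.

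Receptors and transcription factors of the myeloid branch had a mixed pattern. Csf1r, the receptor for macrophage colony-stimulating factor, was at 6.89 and 4.63 in HSC of normal mice and at 8.08 and 7.58 in HSC of leukemic mice, and Csf2rb, the shared beta chain of the receptors for GM-CSF, interleukin-3 and interleukin-5, at 7.09 and 6.23 against 8.38 and 7.80. Irf8, a factor of the monocyte and dendritic lineages, was at 5.60 and 5.23 against 6.72 and 7.27 (1.58 ± 0.24, adjusted p = 0.134). All of these were separated in their brightest probe sets, whereas Spi1, which encodes PU.1, was at 8.82 and 8.69 against 8.82 and 8.03. The second probe set of Irf8 overlapped, at 6.91 and 3.87 against 5.35 and 6.15. Another probe set of Csf1r lay above, at 5.21 and 5.29 against 5.86 and 5.60. The last of Csf1r overlapped, at 5.71 and 5.14 against 5.81 and 5.28. Hp, the hemoglobin-binding protein haptoglobin, had 6.38 and 5.75 against 8.62 and 8.05, and Ly86, a partner of a Toll-like receptor relative, 3.80 and 3.71 against 6.75 and 5.70. Ms4a3, a gene of granulocyte-monocyte progenitors, was at 6.53 and 6.30 against 7.42 and 7.88, and Plac8 at 9.33 and 9.89 against 10.81 and 10.68. Summed on the linear scale, the 21 genes gave 5522 and 6306 in HSC of normal mice and 11023 and 12559 in HSC of leukemic mice, and 50434 to 68767 in KSL. HSC of leukemic mice thus lay nearer to HSC of normal mice than to KSL in this sum, to which the brightest genes add most. On the log2 scale the median level of the list was 6.66 in HSC of normal mice and 8.22 in HSC of leukemic mice. It was 9.87 in KSL of normal mice. For 19 of the 21 genes the mean in HSC of leukemic mice lay between the means of HSC and KSL of normal mice.

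Genes of mature neutrophils were higher too, but with a wide gap between the arrays of normal mice. Of 18 measured members 10 (55.6%, against 16.0% of all genes) lay above on both leukemic arrays and 1 (5.56%, against 16.7%) below. Limma passed 0 over all genes, with 5 (27.8%, against 6.54%) higher at an unadjusted p under 0.05. The median difference was 1.46, but 0.44 without HSC normal 2 and 2.17 without HSC normal 1. S100a9, the partner of S100a8, was at 12.17 and 6.66 in HSC of normal mice and at 12.86 and 12.43 in HSC of leukemic mice. Camp, the gene of the antimicrobial peptide cathelicidin, was at 10.12 and 5.59 against 10.27 and 10.35, and Lcn2, which encodes an iron-scavenging siderophore binder, at 7.21 and 3.90 against 9.78 and 9.09. In each of them HSC normal 1 lay far above HSC normal 2, and for Camp and S100a9 close to the leukemic arrays. The summed linear level of the list was 13260 and 2681 in HSC of normal mice, 23599 and 17984 in HSC of leukemic mice and between 7672 and 14925 in KSL.

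For other neutrophil and myeloid genes both arrays of normal mice lay below those of leukemic mice. Cybb, the catalytic subunit of the phagocyte oxidase, was at 4.58 and 4.08 against 6.69 and 6.92 (2.48 ± 0.23, adjusted p = 0.0845), and a second probe set had 4.87 and 4.33 against 7.23 and 5.99. Slpi, a secreted inhibitor of neutrophil proteases, was at 7.83 and 8.01 against 12.08 and 13.29, a difference of 4.77 ± 0.44 (27.2-fold, adjusted p = 0.0819) with 1 probe set. Wfdc21, a small secreted protein of the same domain family, was at 5.72 and 4.18 against 8.30 and 8.15, with HSC normal 1 again the higher normal array. Lysozyme (Lyz2) was high throughout, at 11.32 and 10.74 against 11.62 and 11.82. Of 13 genes of mast cells, basophils and eosinophils, 6 (46.2%, against 16.0% of all genes) lay above on both leukemic arrays and 0 (against 16.7%) below (median 0.38, and 0.15 without HSC leukemic 2), among them the muscle LIM protein gene Csrp3 at 5.81 and 6.19 against 7.13 and 7.02. The high-affinity IgE receptor gene Fcer1a had 3.60 and 3.32 against 5.49 and 5.27. Limma passed 0 of these 13, with 3 (23.1%, against 6.54%) higher at an unadjusted p under 0.05.

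**Figure D2:**
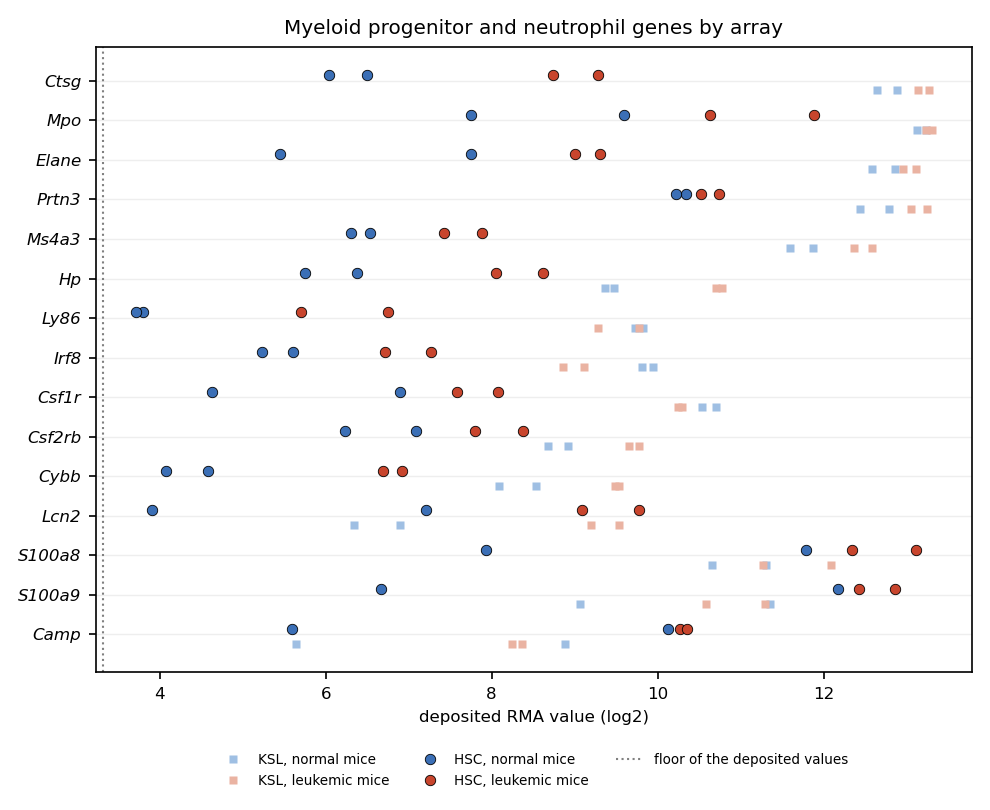
Deposited RMA values (x axis, log2) of 15 myeloid progenitor and neutrophil genes, 1 point per array (circles, HSC; squares, KSL; dotted line, the floor). The granule protease Ctsg separates the HSC groups with KSL above both, whereas S100a8, S100a9 and Camp show HSC normal 1 near the leukemic arrays and HSC normal 2 far below.

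The 4 widest gaps between the HSC groups in the higher direction belonged to immunoglobulin genes. Igha, the constant region of the IgA heavy chain, was at 6.81 and 7.67 in HSC of normal mice and at 12.01 and 12.94 in HSC of leukemic mice (5.23 ± 0.57, 37.6-fold, adjusted p = 0.0933), and all 3 of its probe sets agreed, with differences of 5.23, 6.19 and 5.42. The light chain genes Igk-V21 (3.61 and 3.67 against 11.84 and 11.04, adjusted p = 0.0531) and Iglv1 (4.07 and 5.15 against 11.03 and 10.86, adjusted p = 0.133) behaved alike. Others were high on HSC normal 1 too. Igk was at 11.14 and 4.42 against 13.23 and 13.51 (adjusted p = 0.38), and Igkv8-30 at 10.73 and 6.87 against 12.69 and 13.44. The kappa variable gene with the largest difference was at the floor in normal mice and at 12.11 and 11.16 in leukemic mice, at least 319-fold higher (adjusted p = 0.0587), though its other 2 probe sets differed by 0.06 and 0.39. The other 2 probe sets of Iglv1 differed by 0.37 and -0.19. Variable segments are near copies of each other, so a probe set may read several of them. Jchain, which links antibody units into polymers, was at 8.08 and 4.50 against 10.03 and 10.57. Ighm, the IgM heavy chain, was at 7.24 and 8.14 against 8.23 and 11.62 in its brightest probe set, and its probe sets disagreed. Another had 4.26 and 4.39 against 12.81 and 12.77. Several were far higher on HSC leukemic 2 alone, such as one at 4.71 and 5.38 against 4.75 and 12.49. Others differed little, such as by 0.10 or -0.28.

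Not all genes of antibody-secreting cells followed. A list of 17 such genes, added after the immunoglobulin genes were seen, had 10 members above on both leukemic arrays and 0 below, where 16.0% and 16.7% of all genes were, with a median of 0.42. As its choice followed the values, this count supports nothing by itself. Pou2af1, a B cell coactivator gene, was at the floor against 5.52 and 7.75, at least 9.94-fold higher, and Mzb1, a chaperone gene of antibody assembly, was at 4.70 and 4.78 against 6.39 and 6.81. Sdc1, the surface marker of plasma cells, was at 5.46 and 5.61 against 5.63 and 6.12, and Prdm1, their master regulator, overlapped at 5.89 and 5.39 against 5.22 and 5.67. Igll1, the surrogate light chain of B cell precursors, was at 5.98 and 5.84 against 8.07 and 8.70. Its other probe set overlapped, at 5.10 and 5.09 against 4.90 and 5.32. Rag1, the recombinase gene, was at 3.49 or less on all 4 HSC arrays. Of 14 genes of the B cell list 5 (35.7%) lay above and 2 (14.3%) below (median 0.16). Of 17 other immunoglobulin genes 8 lay above and 0 below, where 16.0% and 16.7% of all genes were, and 4 were at the floor on all HSC arrays. The summed level of all 17 was 4236 and 460 in HSC of normal mice, 26745 and 30780 in HSC of leukemic mice and 19950 to 38403 in KSL. The low values were thus those of HSC of normal mice, and the part of antibody-secreting cells in the sort was not tested.

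**Figure D3:**
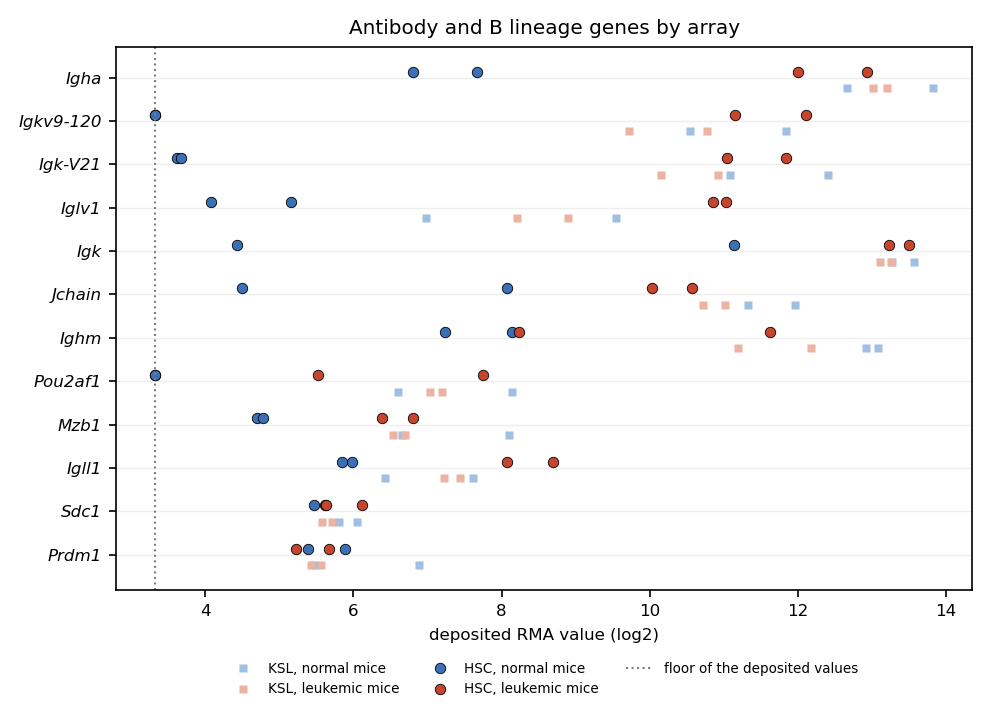
Deposited RMA values (x axis, log2) of 12 antibody and B lineage genes, 1 point per array (circles, HSC; squares, KSL; dotted line, the floor). For Igha and the light chain genes the HSC arrays of leukemic mice lie within or near the range of the KSL arrays, or above it for Iglv1, and those of normal mice lie lower, at 6.81 and 7.67 for Igha, while Sdc1 and Prdm1 stay between 5.22 and 6.88 throughout.

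Interleukin-6 signals through a receptor that shares the gp130 chain, the JAK kinases and the transcription factor STAT3, which turns on the feedback inhibitor SOCS3. Of 30 measured genes of this pathway 9 (30.0%, against 16.0% of all genes) lay above on both leukemic HSC arrays and 4 (13.3%, against 16.7%) below, with a median of 0.20. Limma passed 0 over all genes. At an unadjusted p under 0.05, 8 of the 30 were higher (26.7%, against 6.54% of all genes). Another 3 of the 30 were lower, which is also a larger share than the 7.23% of all genes. The ligand gene Il6 was at the floor on all 4 HSC arrays. Il6st, the gene of gp130, was at 8.17 and 7.65 against 9.09 and 8.55, and Lifr, the receptor for leukemia inhibitory factor, at 3.32 and 3.50 against 4.44 and 4.67. Il6ra, the interleukin-6 binding chain, was at 8.50 and 9.63 against 8.72 and 8.69, and Stat3 at 10.24 and 10.13 against 10.75 and 10.20. Both overlapped.

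Some targets of the pathway were among the higher genes, but differences in the list ran from -1.24 to 1.70. Of the targets given here, Bcl3 and Pim1 were chosen after their values were seen. Socs3 was at 7.11 and 6.87 in HSC of normal mice and at 8.49 and 8.88 in HSC of leukemic mice (1.70 ± 0.16, 3.25-fold, adjusted p = 0.0819). A second probe set gave 7.33 and 6.27 against 8.54 and 8.31, and the last 6.41 and 6.66 against 7.11 and 6.18, which overlap. Bcl3, an IkB-family coactivator, was at 7.62 and 8.15 against 9.05 and 9.78 (1.53 ± 0.32, adjusted p = 0.184). The survival kinase gene Pim1 (10.52 and 10.91 against 11.32 and 11.37) was separated too, as was Pim2 (0.92 ± 0.17). Ptpn2, a phosphatase that damps JAK signalling, ran the other way at 9.23 and 9.15 against 8.62 and 8.36. The 250 bases before the start of Socs3 (RefSeq, GRCm38.p6, chr11:117969367-117969616, minus strand) are printed in the direction of transcription because this gene had the smallest p of the pathway. Capitals mark TTCNNNGAA, the STAT core, found once here and, on either strand, in 7.02% of 32851 promoters.
Socs3: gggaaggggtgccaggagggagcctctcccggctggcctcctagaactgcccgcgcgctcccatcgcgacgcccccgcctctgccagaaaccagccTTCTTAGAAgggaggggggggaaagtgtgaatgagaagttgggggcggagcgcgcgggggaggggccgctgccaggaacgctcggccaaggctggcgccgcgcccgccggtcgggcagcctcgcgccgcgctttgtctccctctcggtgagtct
This match too was not tested as a site.

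Among 31 genes of interleukin-1, TNF and NF-kB signalling, 1 was called, Il1r1, where 0.0989% of all genes were, and 9 (29.0%, against 16.0% of all genes) lay above and 6 (19.4%, against 16.7%) below on both leukemic arrays (median 0.00). Irak1 and Irak2, kinases that act under the interleukin-1 receptor, were at 9.56 and 9.50 against 9.96 and 10.22 and at 6.14 and 5.87 against 6.54 and 6.51. Nfkbie, an NF-kB inhibitor, lay lower on both leukemic arrays (-0.82 ± 0.17). The cytokine gene Il18 had 7.84 and 7.34 against 6.17 and 5.54. Of 30 immediate-early genes 1 was called, Fosl2, with 5 (16.7%) above and 5 (16.7%) below, near the shares of all genes, and Fos and Egr1 overlapped, Fos with 11.68 and 11.37 against 11.69 and 11.58. The stress factor Atf3 was at 7.04 and 6.11 against 5.11 and 5.05. Of 31 interferon response genes 4 (12.9%) lay above and 7 (22.6%) below (median -0.08), among the lower ones the signalling factor Irf9 at 8.28 and 8.42 against 7.41 and 6.63.

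Of 26 measured genes that mark long-term HSC 10 (38.5%, against 16.7% of all genes) had both leukemic arrays below both normal ones and 1 (3.85%, against 16.0%) above. The median of -0.17 lay between -0.48 without HSC leukemic 1 and -0.15 without HSC normal 1. Limma passed 0 over all genes, and 4 (15.4%, against 7.23% of all genes) were lower at an unadjusted p under 0.05. Procr, the endothelial protein C receptor, was at 10.18 and 9.73 in HSC of normal mice and at 8.63 and 8.78 in HSC of leukemic mice (-1.25 ± 0.29, adjusted p = 0.209), still above the KSL mean of 6.70. Fgd5, a marker gene of long-term HSC, was at 7.13 and 7.04 against 4.79 and 5.96, and Mllt3, a chromatin reader that maintains HSC, at 11.24 and 10.92 against 10.08 and 10.33. The second probe set of Mllt3 also separated the groups and the remaining one did not, with 8.71 and 7.37 against 7.87 and 8.50. Hlf, a factor that marks HSC, was at 10.77 and 10.41 against 10.25 and 9.48 and so lay below by a small margin (-0.72 ± 0.32, adjusted p = 0.42). Mecom, a factor required by HSC, overlapped in its brightest probe set with a difference of -0.15 ± 0.35. Another probe set of Mecom lay below, at 6.54 and 7.50 against 6.01 and 6.08, and the last differed by -0.30.

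Of 23 self-renewal factors 6 (26.1%, against 16.7% of all genes) lay below and 1 (4.35%, against 16.0%) above (median -0.06). Lyl1, a partner of SCL in the stem cell factor complex, was at 10.60 and 9.99 against 8.73 and 8.90 (-1.48 ± 0.23, adjusted p = 0.141), and Tcf15, a factor of quiescent HSC, at 7.58 and 8.82 against 6.55 and 6.80. Meis1 was at 10.28 and 10.38 against 9.76 and 10.09. The long noncoding gene Hoxb5os next to a stem cell Hox gene had a difference of -2.52 ± 0.44 without overlap, while Hoxb5 itself overlapped at 8.26 and 8.44 against 8.38 and 7.33. Of 20 imprinted genes 7 (35.0%) lay below and 1 (5.00%) above (median -0.30), among them the growth inhibitor Ndn at 9.45 and 8.40 against 8.04 and 7.20, and Dlk1 at 5.51 and 5.49 against 4.89 and 5.01. The erythroid list had 4 of 14 (28.6%) below and 0 above, and its median of -0.40 went to -0.00 without HSC normal 1, the array on which the erythroid factor gene Klf1 was at 9.62 against 7.38 on HSC normal 2 and 6.96 on both leukemic arrays. Gata1 was at 8.36 and 7.56 against 7.28 and 6.95. Platelet lineage genes went both ways, with the integrin chain Itga2b at 9.16 and 9.69 against 10.32 and 10.41 and the factor Nfe2 at 10.99 and 10.90 against 10.11 and 10.51. Limma passed 0 genes of these lists over all genes; the unadjusted counts were 5 lower of 23 self-renewal genes (21.7%), 5 lower of 20 imprinted (25.0%), 1 lower of 14 erythroid (7.14%), and 2 higher (12.5%) and 1 lower (6.25%) of 16 platelet genes, against 6.54% of all genes higher and 7.23% lower.

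**Figure D4:**
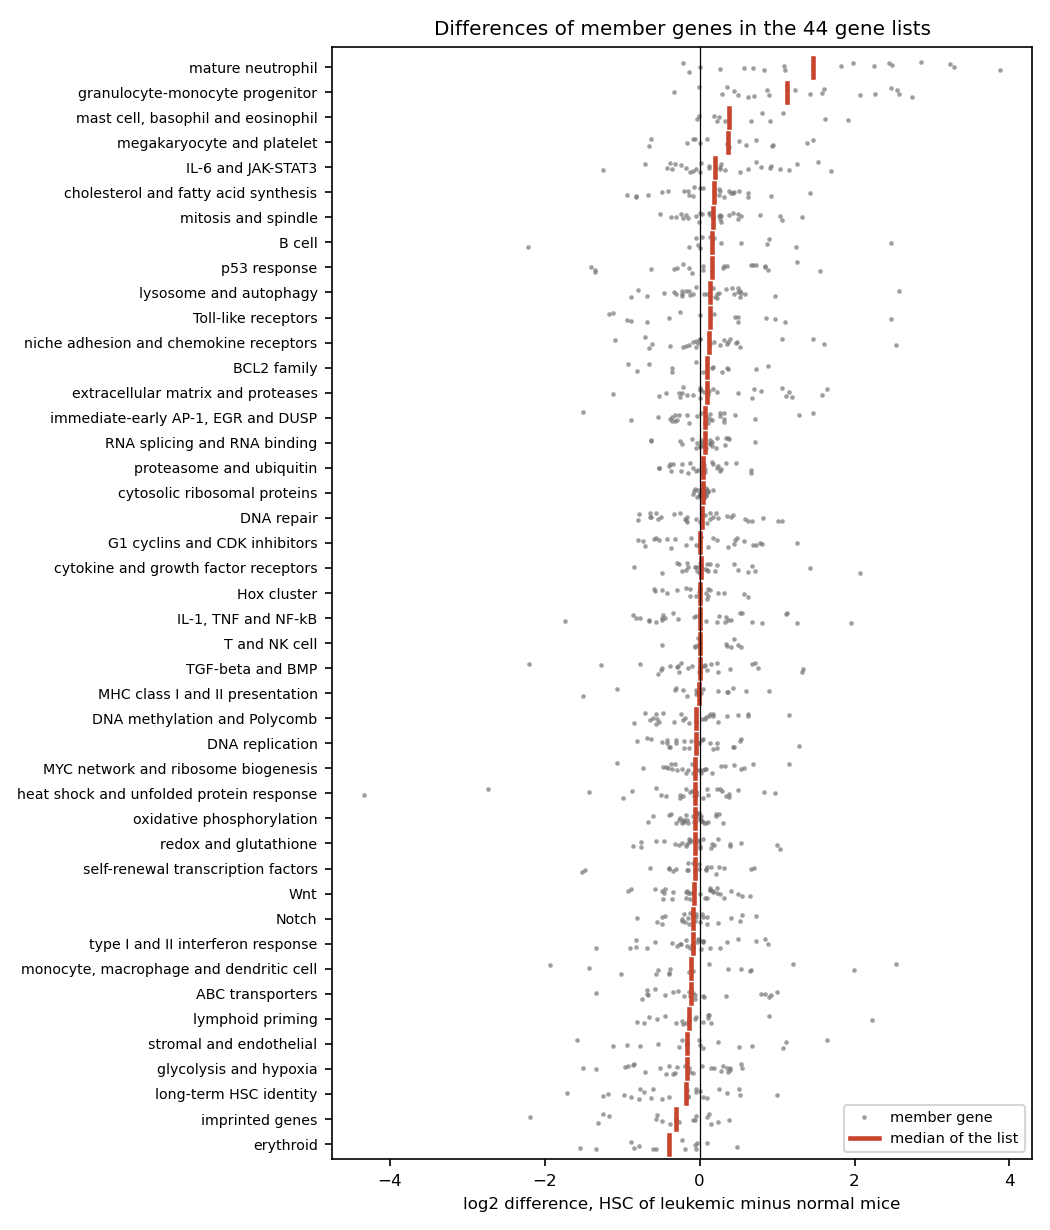
Each grey point is a gene and each row one of 44 gene lists, with red bars at the list medians (x axis: log2 difference, HSC of leukemic minus normal mice). The mature neutrophil list (1.46) and the granulocyte-monocyte progenitor list (1.13) stand at one end and the imprinted (-0.30) and erythroid (-0.40) lists at the other, and most other medians lie near the 0.00 of all genes.

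Cell cycle genes did not move as a block. Of 29 mitosis genes 1 was called, Kif11, where 0.0989% of all genes were, with 8 (27.6%, against 16.0% of all genes) above and 1 (3.45%, against 16.7%) below on both leukemic arrays (median 0.17). Kif2c, a microtubule-depolymerising kinesin gene, was at 6.47 and 6.46 in HSC of normal mice and at 8.16 and 7.41 in HSC of leukemic mice, and Mybl2, which drives late cell cycle genes, at 7.29 and 6.21 against 8.20 and 7.87 with its second probe set alike. The proliferation marker Mki67 was at 11.14 and 11.12 against 11.16 and 11.61, and Top2a at 9.21 and 9.17 against 9.08 and 9.20. Of 29 replication genes 4 (13.8%) lay above and 8 (27.6%) below. The replicative helicase factor Gins2 was at 10.03 and 9.51 against 9.07 and 8.85. The thymidylate synthase gene Tyms was at 5.88 and 5.68 against 6.86 and 7.28, but its probe sets disagreed. Another of them lay above, at 4.22 and 3.32 against 5.82 and 4.60. A further one lay below, at 4.93 and 4.74 against 3.92 and 4.34, and the last overlapped. Tonsl, which repairs stalled replication forks, was at 7.74 and 7.96 against 5.94 and 5.33. Of 29 G1 genes 8 (27.6%) lay above and 6 (20.7%) below. Cdk6, the kinase that limits the exit of HSC from quiescence, was at 10.29 and 10.31 against 11.80 and 11.31 (1.26 ± 0.17, adjusted p = 0.122), and both other probe sets separated the groups, with differences of 0.67 and 0.57. Its close relative Cdk4 ran the other way, at 11.37 and 11.17 against 10.77 and 10.59. Their partner Ccnd1 was at 8.29 and 8.44 against 8.96 and 8.90 in its brightest probe set. Both other probe sets of Ccnd1 overlapped, at 7.05 and 8.67 against 8.48 and 7.60 and at 6.58 and 7.38 against 7.63 and 6.96. The stress genes Gadd45g (7.62 and 7.41 against 9.09 and 9.07) and Cdkn1a (6.64 and 6.81 against 7.34 and 7.50) were higher in both leukemic arrays.

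Of 28 genes of glycolysis and the hypoxia response 11 (39.3%, against 16.7% of all genes) lay below on both leukemic arrays, while the 5 above (17.9%) were near the 16.0% of all genes (median -0.17, and -0.06 without HSC normal 1). Limma passed 0, with 7 lower (25.0%, against 7.23%) and 1 higher (3.57%, against 6.54%) at an unadjusted p under 0.05. Egln3, an oxygen-sensing prolyl hydroxylase that is itself a hypoxia target, was at 7.74 and 7.04 against 5.84 and 6.28, and its second probe set at 7.74 and 7.68 against 5.90 and 5.91. Bnip3, a mitophagy gene induced by hypoxia, was at 7.79 and 7.59 against 6.79 and 6.76, and the phosphofructokinase genes Pfkl and Pfkm at 10.13 and 9.95 against 9.35 and 9.01 and at 8.62 and 8.99 against 7.99 and 7.71. Ldha, the last step of anaerobic glycolysis, was at 11.79 and 11.69 against 12.01 and 12.01. Of 33 oxidative phosphorylation genes 10 (30.3%) lay below and 3 (9.09%) above (median -0.06). In cholesterol synthesis Fdps (7.40 and 7.47 against 6.56 and 6.43) and Lss (8.35 and 8.28 against 7.46 and 7.53) were lower, but 7 of 27 genes of that list (25.9%) lay above and 5 (18.5%) below. Of 25 ribosomal protein genes 8 (32.0%) lay above and 1 (4.00%) below with a median of 0.04, so their differences were small.

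The inducible heat shock genes gave the widest separation in the lower direction. Hspa1b, an inducible HSP70 gene, was at 8.53 and 6.76 in HSC of normal mice and at the floor on both leukemic arrays, at least 20.1-fold lower (adjusted p = 0.19), and its other 2 probe sets were also at the floor there, against 6.86 and 6.20 and against 7.03 and 6.22. Hspa1a was at 6.25 and 5.86 against the floor, at least 6.64-fold lower. Both were lower in KSL of leukemic mice too. Hspa1b was there at 11.29 and 9.18 in normal mice and at 4.31 and 3.80 in leukemic mice (adjusted p = 0.225). Hspa1a was at 9.76 and 7.60 in KSL of normal mice and at the floor in KSL of leukemic mice (adjusted p = 0.215). The copies are nearly identical, so their signals cannot be assigned to one of them. Other chaperones did not share this fall in HSC. Dnajb1 was at 11.25 and 11.08 against 11.35 and 10.85, and Hsp90aa1 at 12.06 and 12.10 against 11.99 and 12.08. The mitochondrial Hspa9 was at 10.32 and 10.21 against 10.74 and 10.77. Of 32 chaperone and unfolded protein genes 1 was called, Creb3, where 0.0989% of all genes were. The 3 other probe sets of Creb3 did not separate the groups. In this list 7 (21.9%, against 16.0% of all genes) lay above and 9 (28.1%, against 16.7%) below. The stretch before the start of Hspa1b (RefSeq, GRCm38.p6, chr17:34959239-34959488, minus strand, 250 bases) is printed in the direction of transcription because no other gene had so wide a gap in this direction. Capitals mark GAANNTTC, the core of the heat shock element, found once here and, on either strand, in 6.69% of 32851 promoters.
Hspa1b: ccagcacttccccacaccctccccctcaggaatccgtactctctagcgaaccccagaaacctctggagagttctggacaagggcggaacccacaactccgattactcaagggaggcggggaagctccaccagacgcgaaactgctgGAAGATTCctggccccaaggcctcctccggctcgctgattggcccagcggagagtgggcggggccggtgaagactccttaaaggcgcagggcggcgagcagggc
Whether it is bound was not tested.

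Wide separations at an unadjusted p under 0.05 also included, in the higher direction, Rcvrn, a calcium sensor of photoreceptors (4.30 and 3.99 against 6.71 and 6.50), Aldh1l1, a folate enzyme (6.44 and 6.79 against 9.25 and 8.77), and Clca3a1, a chloride channel regulator (6.45 and 5.33 against 8.49 and 8.39). In the lower direction Zmat1, a zinc finger gene, was at 6.37 and 6.91 against 3.83 and 3.78 (-2.84 ± 0.22, adjusted p = 0.0638). The actin regulator Pfn2 (6.23 and 6.01 against 3.32 and 4.10) and the kinase gene Nim1k (6.40 and 8.16 against 4.00 and 4.57) were near the floor in leukemic mice.

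Genes with more than 1 probe set above the floor gave a check within the arrays, since such probe sets read the same gene in the same RNA. Across 7829 such genes the differences of the brightest and the next brightest probe set correlated with r = 0.24 (across genes, which are not independent replicates), and 57.9% had the same sign. Among the 565 genes whose brightest probe set differed by at least 1 log2 unit, 66.4% did. All probe sets lay apart in the same direction in 210 genes higher (2.68%) and in 275 lower (3.51%). With every probe set at an unadjusted p under 0.05, 45 genes were higher and 73 lower. Igha, Cybb, Cd53, Atp8b4, Col18a1 and Mybl2 were among the former, and Hspa1b, Egln3, Zfp707, Spice1 and Thap2 among the latter. Cd53, a leukocyte tetraspanin gene, was at 8.93 and 9.65 against 11.25 and 10.87 in the brighter probe set. Col18a1, which encodes the collagen that releases endostatin, was at 6.60 and 6.68 against 7.78 and 7.64 and at 6.26 and 6.41 against 7.98 and 7.88. Zfp707, a zinc finger gene, was at 7.26 and 7.03 against 5.08 and 5.70 and at 6.96 and 7.23 against 5.93 and 5.34.

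**Figure D5:**
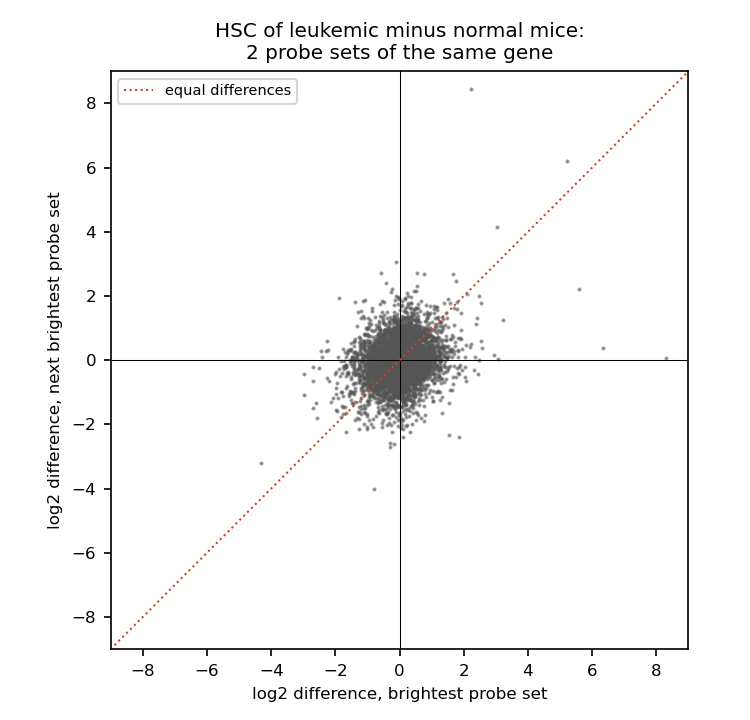
Each point is 1 of 7829 genes with at least 2 probe sets above the floor (x axis: log2 difference, leukemic minus normal HSC, in the brightest probe set; y axis: the same in the next brightest; dotted line, equal differences). The cloud is wide around the line (r = 0.24), and 57.9% of genes have the same sign in both.

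The difference between the responses of HSC and KSL was tested as an interaction over all 8 arrays. Limma called 1 gene, Slc16a12, and 0 of the other called HSC genes. Il1r1 was at 8.13 and 8.22 in KSL of normal mice and at 7.92 and 7.74 in KSL of leukemic mice, and its HSC difference minus its KSL difference was 2.29 ± 0.12 (adjusted p = 0.0578). For Fosl2 it was 1.47 ± 0.09 (adjusted p = 0.0894). Cirbp was higher in leukemic mice in both gates, by 0.72 in HSC and 1.04 in KSL.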

How the data were processed

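RNA of 8 sorted mouse samples, 2 in each of 4 groups, was measured on Affymetrix arrays. The authors deposited 1 table of log2 values for 45101 probe sets, made with RMA per the submitters' processing notes, which give no version. RMA corrects the background, brings all arrays to one distribution and summarises the probes of a set. The labels and the series' design text differ on how the RNA was amplified, so this is not settled here. Values have a floor at 3.32 (10.0 on the linear scale), which holds 14.9% to 15.8% of each array. Floor values are not ranked, and folds against a group at the floor are lower bounds ("at least"), on group means. RMA values of different probe sets do not compare levels between genes. The disease state and cell type labels and titles gave the groups. The free-text sample descriptions name embryos and were not used.

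Of the probe sets, 34945 had 1 gene symbol in the platform annotation, 932 several, 9160 none, and 64 were controls. Among those with 1 symbol, 34741 were found by gene identifier in the RefSeq table of GRCm38.p6, with 0 symbols updated. Each gene was represented by its brightest probe set (highest mean of all arrays), which left 18193 genes, 9010 of them with several probe sets. Ly6a, the Sca-1 gene, had no probe set of its own symbol. Dim genes were kept, so that 1435 genes had only floor values in HSC. Limma 3.58.1 in R 4.3.3 was fitted to all 8 arrays with a mean for each group (residual degrees of freedom 4, prior 0.67) and two-sided tests, with Benjamini-Hochberg adjustment over all genes and a threshold of 0.05. Every adjusted p is from that fit unless another is named. Errors after ± are the fit's standard errors (n = 2 per group), and precision is limited by how few arrays there are. The fit was tested on simulated data. "Against" sets HSC of normal mice before HSC of leukemic mice, replicate 1 before 2, and "above" or "below" means that both leukemic arrays lay beyond both normal ones. Python 3.11.15 served for tables, with matplotlib 3.10.9 for figures.

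The comparison, the 44 gene lists (1200 entries, 1095 measured) and the tests were chosen with earlier results of these data known. Genes were named by a rule: all called genes, the 12 widest gaps in each direction at an unadjusted p under 0.05, up to 4 members of each list, the sort gate genes, and the 8 genes in each direction whose probe sets agreed most strongly. Unnamed genes, olfactory and similar receptors, small RNAs and segments of antigen receptors were left out of the first parts of the rule. Other genes named, such as Mpo, Elane, S100a8, Camp, the light chain genes, Bcl3, Mecom and Klf1, were chosen after their values were seen. Promoters came from RefSeq, and each motif was searched in 250 bases on both strands.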

Additional observations from a re-analysis of the deposited data

Results flagged for a closer look

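The difference between leukemic and normal mice in HSC and that in KSL were compared by an interaction term for every gene. Limma passed 1 gene, Slc16a12, whose HSC difference minus its KSL difference was -1.15 ± 0.04 (adjusted p = 0.0245). It was at 4.48 and 4.47 in HSC of normal mice and at the floor of 3.32 on the other 6 arrays, so its small error comes with values that cannot vary, and no replicate variation was measured at the floor.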

How the results depend on the processing

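The count of called genes, 18 in the fit of all arrays, depended on how the spread was estimated. It was 0 with the 4 HSC arrays alone, 2 with array weights, 11 with the mean of all probe sets (8 of them shared with the 18), 0 with the replicate block, 0 with a term for the male pattern and 0 without the arrays of male pattern. At an unadjusted p under 0.05 these fits left 1459, 1390, 2573, 2433, 2238 and 2740 genes. It was 20 with a common median, 13 with cyclic loess, 19 with a trend and robust prior, 17 without genes at the floor in HSC and 12 without the lowest 40% of genes, sharing 9, 13, 18, 6 and 2 with the 18. Leaving out 1 array gave 0 to 257 calls for the HSC difference and 0 to 68 for its difference from KSL (1 in the fit of all arrays). The lone array left in a group was then assumed to vary like the others. The deviations of same-numbered arrays correlated between -0.0351 and 0.0873, so the numbers were not taken as pairs, though the arrays numbered 1 of both normal groups share the male pattern. All called genes kept their direction under every alternative that gave them a value.

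Directions that turned belonged to genes that were not called, with differences up to the -0.86 of Nfe2l2. With the mean of all probe sets Mcm10 was at -0.29, Mxd4 at 0.13, Nfe2l2 at 0.34, Psma1 at 0.16, Psmc2 at 0.21, Satb1 at 0.08 and Ptprc at 0.46. Ptprc was at 0.05 with a common median and 0.02 with cyclic loess. With the male pattern as a term Cd48 was at -0.46, and without those arrays it was at -0.95 and Prdm1 at 0.05. Leaving out 1 array moved Cd3e between -0.30 and 0.18, Cd48 between -0.95 and 0.99, Il6ra between -0.93 and 0.21, Kit between -0.44 and 0.66, Mecom between -0.42 and 0.12, Prdm1 between -0.44 and 0.05, Ptprc between -0.26 and 0.26, Spi1 between -0.73 and 0.07 and Top2a between -0.11 and 0.01. The cause was not tested.

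Signal over background limits genes near the floor, for which folds are bounds. Probe sets of a gene often disagreed.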

Other observations

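Extracellular matrix and adhesion genes had values on both sides. Of 29 matrix and protease genes 8 (27.6%, against 16.0% of all genes) lay above on both leukemic HSC arrays and 4 (13.8%, against 16.7%) below (median 0.09, and 0.38 without HSC leukemic 2), with 2 called, Mmp13 and Col4a5, where 0.0989% of all genes were. Col1a1, the main collagen chain of bone, was at 4.47 and 5.41 against 6.10 and 7.06, and Sparc, a collagen-binding matrix protein gene, at 6.91 and 6.47 against 5.51 and 5.62. Another probe set of Sparc lay above, at 5.17 and 5.57 against 5.79 and 5.79, and the last overlapped. Of 29 niche adhesion and chemokine receptor genes 9 (31.0%) lay above and 6 (20.7%) below. S1pr1, the receptor that guides cells out of tissue along sphingosine-1-phosphate, had a difference of 1.60 ± 0.46 without overlap. Ccr2, a chemokine receptor of monocytes, was at 4.67 and 3.74 against 7.43 and 6.06, and Icam2 at 9.88 and 9.34 against 8.50 and 8.54. None of these 5 passed limma over all genes (adjusted p between 0.165 and 0.281).

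No gene of the chromatin list was called, and the TGF-beta and BMP list was near the shares of all genes that lay above or below. Of 29 genes of DNA methylation and Polycomb 0 lay above (against 16.0% of all genes) and 6 below on both leukemic HSC arrays (20.7%, against 16.7%; median -0.05), and limma called 0, with 4 lower (13.8%, against 7.23%) at an unadjusted p under 0.05. Ezh2, the Polycomb methyltransferase, was at 9.56 and 9.70 against 9.25 and 8.96, and the de novo DNA methyltransferase Dnmt3b at 9.05 and 9.37 against 8.50 and 8.80. In the TGF-beta and BMP list, where Bmp4 was called, Tgfb3 was at 4.80 and 5.09 against 3.43 and 3.93 and Smad3 at 9.53 and 9.65 against 8.97 and 9.21, while the inhibitor Id3 was at 6.80 and 6.44 against 7.63 and 8.27. Of 30 genes of that list 1 was called, where 0.0989% of all genes were. Above lay 5 (16.7%) and below 6 (20.0%), with a median of 0.00. At an unadjusted p under 0.05 in limma, 5 were lower (16.7%, against 7.23% of all genes) and 1 higher (3.33%, against 6.54%).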
